A study of Mus musculus with 16 samples.

Results

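Chromatin loops of the newborn mouse cochlea were not spread evenly along the chromosomes, and 287 of 2348 windows of 1 Mb held 10 or more distinct loop anchors. These dense windows, 12.2% of all windows, were selected on the number of 10 kb anchor bins in the loop list deposited for merged Micro-C replicates, on chromosomes 1 to 19 of mm10, and each window lay wholly between the outermost anchors of its chromosome. Micro-C is a form of Hi-C in which chromatin is cut with micrococcal nuclease before ligation, so that contacts are read at nucleosome scale. The loops came from whole cochleae of untreated C57Bl/6 mice at birth (P0 by their labels, P0/1 in the authors' text). There was no comparison group, and 4 Micro-C replicates were pooled before loops were called. The replicates are described once as partly technical and once as all biological, and the tissue holds hair cells, supporting cells, neurons, mesenchyme, glia and blood together, so a loop carries no cell type. The list gives neither depth nor values for single replicates, and the intervals printed below cover counting over windows, anchors, loops or genes and not variation between animals.

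A chromatin loop brings a pair of distant DNA segments, its anchors, into contact. Many loops form when cohesin extrudes DNA until it meets CTCF, a zinc finger protein bound to a directional DNA motif, and other loops connect the start sites of genes with distant enhancers. Genes that control development often lie in large regulatory landscapes with many enhancers, whereas olfactory and vomeronasal receptor genes lie in long clusters that are silent outside the sensory epithelia of the nose. A megabase with many anchors is therefore described here by the genes it holds, by its gene density and base composition, and by where in the genes the anchors fall.

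The window with the most anchor bins lay at chr15:25000001-26000000 (mm10) and held 19, which were joined by 13 loops. Of these 19 bins, 8 held a match to the CTCF consensus with at most 1 mismatch, and in 7 of them the best match lay on one strand only. Over all windows 21.5% of 10 kb bins held such a match. The matches are shown because their strand can be read beside the side on which the loop partner lies. Each is printed 5′ to 3′ on the strand of the match, from the RefSeq genome GRCm38.p6, with the 14 matched bases in capitals and 13 bases on each side. A match at the left anchor of a loop points inward when it lies on the plus strand, and at a right anchor when it lies on the minus strand.
Anchor 1, chr15:25048057-25048096, plus strand, loop partner to the right: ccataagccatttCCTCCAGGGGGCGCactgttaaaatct
Anchor 2, chr15:25192764-25192803, minus strand, loop partner to the right: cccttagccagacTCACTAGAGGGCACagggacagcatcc
Anchor 3, chr15:25428730-25428769, plus strand, loop partner to the left: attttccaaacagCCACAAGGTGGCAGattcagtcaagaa
Anchor 4, chr15:25441147-25441186, plus strand, loop partner to the right: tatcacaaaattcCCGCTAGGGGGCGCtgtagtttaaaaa
Anchor 5, chr15:25717198-25717237, minus strand, loop partner to the left: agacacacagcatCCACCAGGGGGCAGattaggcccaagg
Anchor 6, chr15:25792266-25792305, minus strand, loop partner to the left: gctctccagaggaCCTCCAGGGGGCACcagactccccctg
Anchor 7, chr15:25993523-25993562, plus strand, loop partner to the right: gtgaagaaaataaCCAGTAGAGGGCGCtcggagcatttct
In 5 of the 7 bins the match pointed inward, and the matches of Anchor 2 and Anchor 3 pointed outward. A match is a run of letters and not a bound site, and CTCF binding was not analysed here.

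The same window held 4 protein-coding start sites. Basp1 (chr15:25363277-25413764, minus strand), which encodes a membrane protein of growth cones and synapses, was the only one whose start site lay in an anchor bin. Its start bin was the right anchor of 2 loops, of 690 and 820 kb, with FDR values of 0.0062 and 0.000265. Myo10 (chr15:25622525-25813673, plus strand), an unconventional myosin of filopodia, was crossed by 7 anchor bins, none of them at its start site. Retreg1, a receptor for the turnover of endoplasmic reticulum, was crossed by 2 and Zfp622 by 1. The remaining 8 bins overlapped no protein-coding gene. Between 410 and 460 kb from the window start 5 anchor bins lay in a row, the first of them at the start of Basp1, and 3 of the 19 bins served more than 1 loop. A window of 19 anchor bins was thus a window of few genes, with 38.6% of its bases inside protein-coding genes against a median of 42.7% over all windows.

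**Figure D1:**
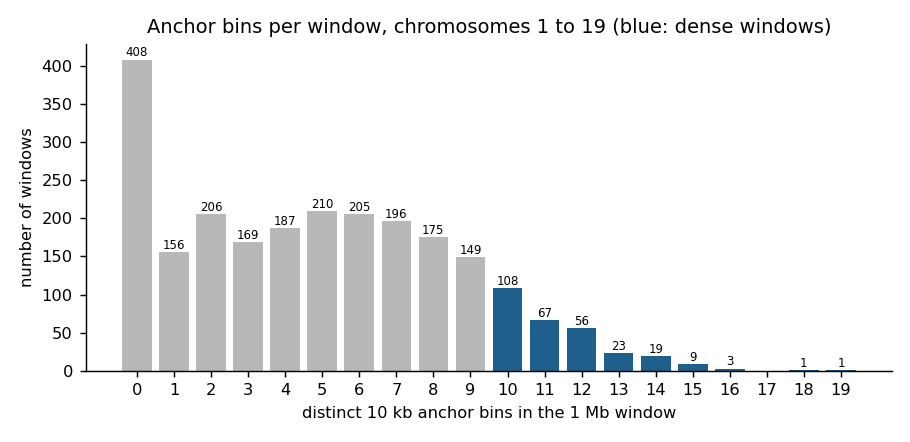
Number of 1 Mb windows (vertical axis) by the number of distinct 10 kb anchor bins they hold (horizontal axis), with the dense windows in blue. There were 408 windows without an anchor and 287 windows with 10 or more, of which 108 sat at exactly 10 and 1 reached 19.

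Most dense windows lay close to the threshold. As the plot of anchor bins per window shows, 108 of the 287 held exactly 10 bins, 67 held 11, 56 held 12, 23 held 13, 19 held 14 and 14 held 15 or more. Just outside the threshold stood 149 windows with 9 bins. The windows with 9 and with 10 bins had the same median of 9 start sites, a GC content of 44.0% and 43.5%, and 51.9% and 58.3% of their bases inside protein-coding genes. Together the dense windows held 3274 of the 11490 anchor bins of all windows (28.5%), and 2299 of 6689 autosomal loops (34.4%) had an anchor in them.

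Anchor bins often lay side by side, and this carries much of the count. In 278 of the 287 dense windows at least 1 pair of anchor bins was adjacent, and the median dense window had 3 such pairs. The bins spanned a median of 850 kb of the window, with a median spacing of 55 kb between neighbours. When bins within 20 kb of each other were counted once, the dense windows held a median of 8 anchor groups (lowest 3, highest 12), windows with 9 bins a median of 7, and 29 of the 287 windows still held 10 or more. Adjacent bins can come from separate loops or from a single broad contact called more than once, and these cannot be told apart here.

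Dense windows held more genes than the typical window, yet the most gene-rich windows were seldom dense. A dense window held a median of 9 protein-coding start sites (95% interval 8 to 9), against 6 in windows with 1 to 9 anchor bins, 1 in windows without an anchor and 5 over all windows. The middle part of the dense windows ran from 5 to 13 start sites (lower and upper quartile), and the full range ran from 0 to 53. By class, 0.366% of the windows without a start site were dense (1 of 273), 6.76% of those with 1 to 4, 19.8% of those with 5 to 9 and 21.7% of those with 10 to 19. The share was 9.62% (5.91 to 15.3%) in windows with 20 to 29 start sites, an interval that includes the 12.2% of all windows. It was 4.42% (5 of 113, 1.90 to 9.94%) in windows with 30 or more. Clustered olfactory and vomeronasal receptor genes were not removed from these classes. Windows of intermediate gene density therefore had the highest share of dense windows, and both ends of the scale lay below the 12.2% of all windows. The plot of dense shares by class shows this rise and fall.

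**Figure D2:**
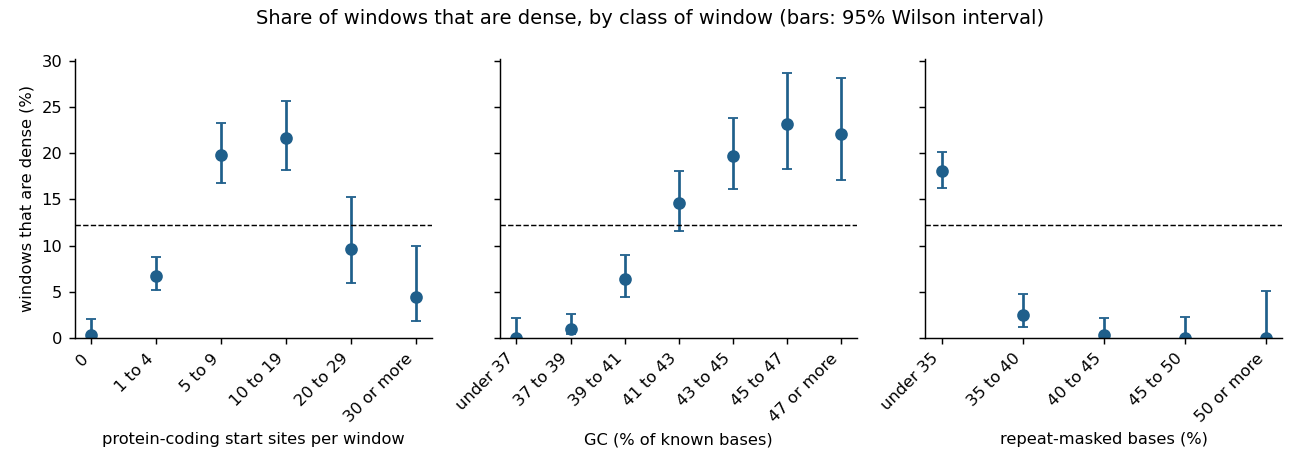
Share of windows that are dense (vertical axis, %), by protein-coding start sites, GC content and repeat-masked bases of the window, with 95% Wilson intervals as bars and the 12.2% of all windows as a dashed line. The share was highest at 10 to 19 start sites (21.7%), rose with GC from 0 of 168 windows under 37% to 23.1% at 45 to 47%, and was 18.1% where under 35% of bases were repeat-masked.

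Base composition moved with anchor number more steadily than gene number did. The median GC content was 43.9% in dense windows (43.6 to 44.3%), 42.1% in windows with 1 to 9 bins and 37.9% in windows without an anchor. No window under 37% GC was dense (0 of 168, 95% Wilson interval up to 2.24%), whereas 22.1% of the windows with 47% GC or more were. Dense windows held a median of 27.3% repeat-masked bases, against 30.7% and 43.1% in the other groups, and 278 of the 287 had under 35%. Over the 2348 windows the rank correlation with the number of anchor bins was 0.41 for start sites, 0.58 for GC content and -0.61 for repeat-masked bases. These windows share the same loop list, neighbouring windows share loops, and the ease with which reads map to repeats differs along the genome. The part of mapping in the anchor counts was not tested.

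Within each class of GC content the share of dense windows still changed with the number of start sites. In windows of 45% GC or more it was 15.8% with 0 to 4 start sites, 30.4% with 5 to 9, 30.6% with 10 to 19 and 11.5% with 20 or more. At 41 to 45% GC the shares were 12%, 23.1%, 18.6% and 1.47%. Under 41% GC they were 2.14%, 8.38%, 5% and 0 of 36 windows. Windows with 20 or more start sites had the lowest share in each of the 3 classes of GC content, and at 41 to 45% GC alone their interval lay apart from that of windows with 0 to 4 start sites.

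**Figure D3:**
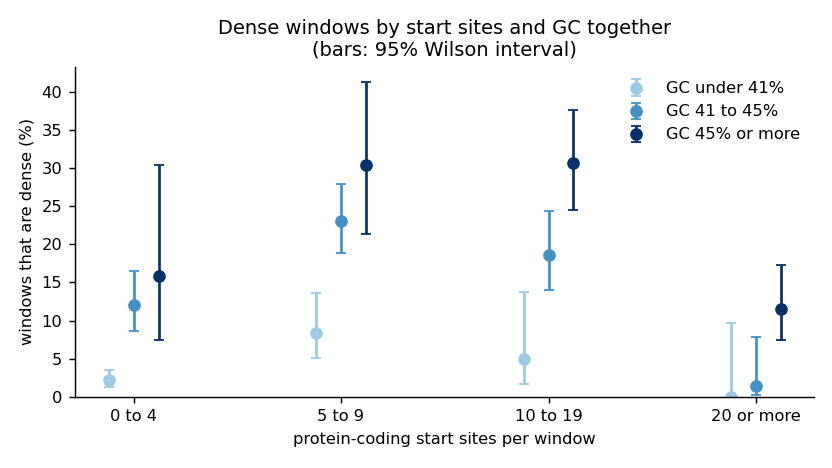
Share of windows that are dense (vertical axis, %) by protein-coding start sites (horizontal axis) within 3 classes of GC content (colours), with 95% Wilson intervals as bars. Windows with 5 to 19 start sites had the highest shares in each class, up to 30.6% at 45% GC or more, and windows with 20 or more start sites had 11.5%, 1.47% and 0.

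Genes in dense windows had a higher median length than those of other windows. The 2864 protein-coding genes that started there had a median length of 25.4 kb (24.1 to 26.8), against 18.9 kb in windows with 1 to 9 bins and 7.93 kb in windows without an anchor. The 2429 genes of windows without an anchor included 506 olfactory and 231 vomeronasal receptor genes. Without such receptors the median was 25.5 kb in dense windows, and it was not taken in the other groups. Of all protein-coding start sites, 14.2% lay in dense windows. Of the genes shorter than 10 kb 9.99% started there, of those of 10 to 50 kb 15.4%, of those of 50 to 200 kb 19.1% and of those of 200 to 500 kb 18.5%. Genes of 500 kb or more stood at 7.44% (16 of 215). Protein-coding genes covered a median of 58.4% of a dense window, 46.1% of windows with 1 to 9 bins and 9.84% of windows without an anchor. The 16 giant genes that started in dense windows included Dlg2 and Ank3, which encode scaffolds of synapses and axon initial segments, Sox5, a transcription factor of cartilage and neural crest, and Slit3, an axon guidance ligand.

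Of all annotated genes 13.5% started in dense windows. Dense windows held 18.1% of antisense genes (16.7 to 19.5%), 15.8% of lincRNA genes, 12.7% of miRNA genes, 12.5% of snRNA genes, 10.2% of snoRNA genes, 11.2% of processed pseudogenes and 1.62% of unprocessed pseudogenes (28 of 1725). Unprocessed pseudogenes arise by duplication and often lie in receptor clusters. Of them 47.6% lay in windows without any anchor, against 14.9% of all annotated genes.

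Anchors in dense windows held start sites about as often as anchors elsewhere and lay more often in gene bodies, which also covered more of those windows. A protein-coding start site lay in 12.4% of the 3274 anchor bins of dense windows (11.3 to 13.6%) and in 11.7% of those of other windows (11 to 12.4%), against 7.65% of all 10 kb bins. Among all bins the share was 9.0% in dense windows and 7.47% in the others. Gene bodies without a start site took up 51.2% of the anchor bins in dense windows (49.5 to 52.9%) and 46.5% elsewhere (45.4 to 47.6%). Outside protein-coding genes lay 36.3% (34.7 to 38%) and 41.8% (40.7 to 42.8%). The windows differed in the same direction, as protein-coding genes covered a mean of 54.6% of a dense window. The mean was 44.2% of a window with 1 to 9 anchor bins, where the other anchors lay. The share of all bins that lay in gene bodies was not counted. The median distance from an anchor to the nearest start site was 30.4 kb in dense windows and 34.5 kb in other windows, whereas it was 41.1 kb and 83.0 kb over all of their bins. All bins of other windows, here and for the 7.47%, include those of the 408 windows without an anchor, which held a median of 1 start site. The anchors of other windows all lay in windows with 1 to 9 anchor bins, for which the distance of all bins was not taken separately.

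The CTCF consensus was matched in 49.1% of anchor bins in dense windows (47.4 to 50.8%) and in 48.3% of anchor bins of other windows (47.2 to 49.4%). All bins of dense windows held a match in 25.8% of cases and all bins of other windows in 20.9%. Direction was read from the strand with the better match, where the strands differed and the partners of the anchor lay on a single side. The better match pointed inward at 78.7% of left anchors and 80.4% of right anchors in dense windows. The shares were 80.5% and 82.9% in other windows. Bins with an exact match made up 13.6% of anchors in dense windows and 13.7% elsewhere.

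Loops of dense windows had the same median length as other loops but fewer were long. Their median distance was 280 kb (270 to 290), and it was also 280 kb in loops that touched no dense window. Distances of 1 Mb or more made up 5.39% of loops of dense windows (4.54 to 6.39%) and 7.15% of the other loops (6.42 to 7.95%). Of the 2299 loops 79.4% had an FDR below 0.05, against 78.8% of the whole list. A start site lay in at least 1 anchor of 22.4% of loops of dense windows and of 21.6% of the other loops. Of the loops with an anchor in a dense window, 1376 (59.9%, 57.8 to 61.8%) had both anchors in the same window, and 65.4% of the other loops did. A loop between a dense window and another window was counted with the dense windows only. This lowers their share by construction, so these shares do not tell whether loops of dense windows stay inside more or less often. Of the 923 loops that left their window, 874 ended in the neighbouring window and 130 joined 2 dense windows. An anchor bin served 2 or more loops in 14.5% of cases in dense windows and in 13.3% elsewhere.

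Dense windows lay on every autosome and sometimes side by side. Chromosome 2 had 33 of them (18.6% of its windows) and chromosome 13 had 21 (18.3%), whereas chromosome 4 had 10 (6.62%) and chromosome 16 had 5 (5.43%). They formed 227 runs, of which 180 were single windows, 36 held 2 windows, 9 held 3 and 2 held 4. The longest runs were chr11:32000001-36000000, with 44 anchor bins and 37 start sites, and chr10:93000001-97000000, with 41 anchor bins and 29 start sites. A dense neighbour was found beside 107 of the 287 dense windows (37.3%) and beside 416 of 2061 other windows (20.2%). Neighbouring windows share loops that cross their border, so these counts are not independent.

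**Figure D4:**
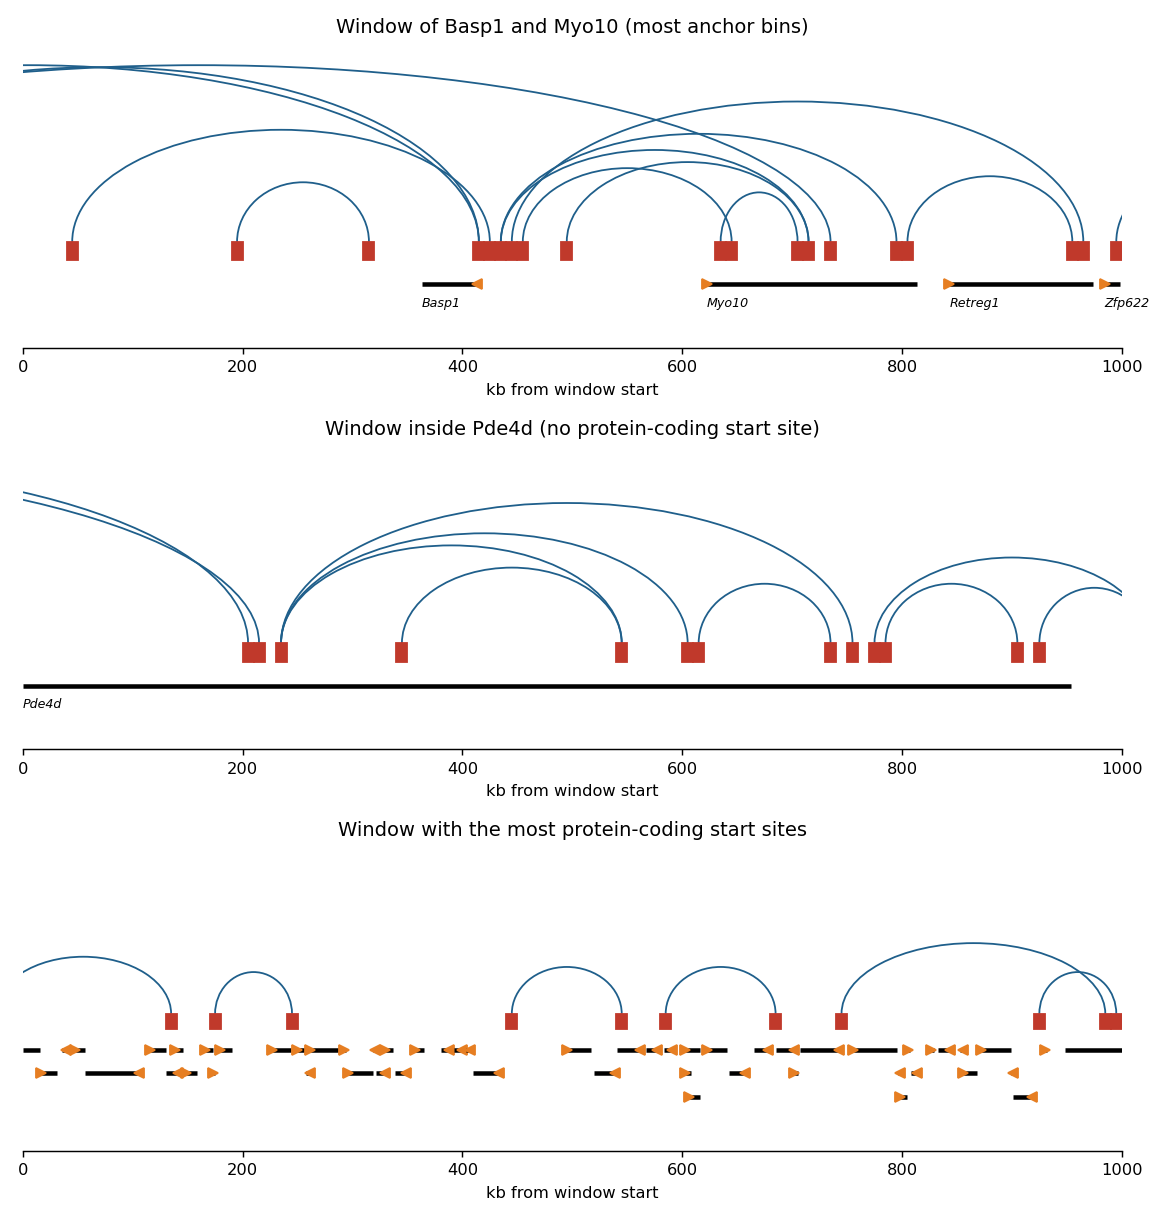
Loops (blue arcs), anchor bins (red) and protein-coding genes (black bars, start sites and direction as orange arrowheads) in 3 dense windows, along kb from the window start. The top window held 19 anchor bins and 4 start sites, the middle one 13 anchor bins and no start site, and the bottom one 11 anchor bins and 53 start sites; arcs that run past the frame end in a neighbouring window, and arc height increases with distance up to a maximum.

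Windows of very different gene content were dense, as the maps of 3 windows show. The window chr13:109000001-110000000 had no protein-coding start site and lay for 95.3% of its length inside Pde4d, a phosphodiesterase of cyclic AMP whose gene spans 1504 kb. It held 13 anchor bins joined by 10 loops, and all 13 overlapped Pde4d. Of these loops 6 had both anchors in the window. Its GC content of 40.3% was below the median of dense windows, and its repeat-masked share of 26.2% was close to it.

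Among the other dense windows with few genes, chr1:73000001-74000000 held the start site of Tnp1, a transition protein of sperm, and the 3′ part of Tns1, a focal adhesion protein. It had 12 anchor bins, of which 1 overlapped Tns1 and 11 lay in no protein-coding gene. In chr7:37000001-38000000 the only start site was that of Zfp536, a zinc finger repressor of neuronal differentiation, and 3 of its 11 anchor bins crossed that gene. In chr2:135000001-136000000 the neighbouring phospholipase C genes Plcb1 and Plcb4 took all 11 anchor bins, with 5 in Plcb1 and 6 in Plcb4, and both genes had their start sites in an anchor bin. In chr5:12000001-13000000 the axon guidance ligand Sema3d was crossed by 6 of 11 anchor bins, one of them at its start site. That window had a GC content of 37%, the lowest among the dense windows.

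At the other end, chr10:80000001-81000000 held 53 start sites and 11 anchor bins, at a GC content of 53.7%. Its 6 loops spanned 70 to 240 kb, all below the median of 280 kb. Start sites in its anchor bins included those of Atp5d and Ndufs7, subunits of the mitochondrial ATP synthase and of complex I, of Efna2, a ligand of Eph receptors, and of Ap3d1, a subunit of the AP-3 adaptor that sorts proteins to lysosome-related organelles. The window chr14:55000001-56000000 had 44 start sites and 11 anchor bins, which included the start sites of Ngdn, Zfhx2, Dhrs4 and Pck2, the mitochondrial form of PEP carboxykinase. In chr11:102000001-103000000, with 35 start sites, the start of Gfap, the intermediate filament of astrocytes, lay in one of 10 anchor bins. In chr2:30000001-31000000, with 31 start sites, the start of Zer1 did. The window chr7:142000001-143000000 held 30 start sites, among them Igf2 and Ins2 of an imprinted cluster and 5 keratin-associated genes of the Krtap5 group. The starts of Igf2 and of Syt8, a synaptotagmin, lay in anchor bins.

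The 3 windows with 16 anchor bins held 2 to 9 start sites. In chr6:55000001-56000000, with 12 loops, the starts of Ghrhr, the receptor of growth hormone-releasing hormone, and of Inmt, a methyltransferase of indole amines, lay in anchor bins. In chr15:41000001-42000000, with 16 anchor bins and 2 start sites, Oxr1, a protein that protects from oxidative stress, was crossed by 8 anchor bins. The start of Abra, which encodes an actin-binding protein of muscle, lay in an anchor bin. In chr10:111000001-112000000, with 16 anchor bins, the starts of Bbs10, a chaperonin-like protein mutated in Bardet-Biedl syndrome, and Phlda1 lay in anchor bins. A window of chromosome 18 with 18 anchor bins held part of Nedd4l, a ubiquitin ligase, and Rax, a homeobox gene of eye development whose start lay in an anchor bin.

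Among the windows with 15 anchor bins, chr1:160000001-161000000 was spanned mostly by Rabgap1l, a GTPase activator of Rab proteins, with 8 anchor bins, and by Rc3h1, an RNA-binding regulator of T cells, with 4. The starts of Cacybp and of Serpinc1, which encodes antithrombin, lay in anchor bins there. In chr12:117000001-118000000, with 2 start sites, Rapgef5 and Dnah11, an axonemal dynein of cilia, were crossed by 3 and 2 anchor bins. In chr6:119000001-120000000 the calcium channel gene Cacna1c, the signalling gene Wnt5b and the active zone gene Erc1 were each crossed by 3 anchor bins inside the window, and no start site that lay in the window was in an anchor bin. In chr10:75000001-76000000, with 27 start sites, 7 of 15 anchor bins held a start site, among them those of Bcr, Cabin1, Gstt2, a glutathione transferase, and Derl3. In chr14:65000001-66000000 5 of 15 anchor bins did, among them those of Extl3, Fzd3, a Wnt receptor, Elp3, Scara5 and Clu, the chaperone clusterin. The share of anchors at start sites among the windows with most anchors thus ran from 0 of 15 to 7 of 15.

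Among the protein-coding genes that start in a dense window, the most anchor bins fell in Dlg2 (chr7:90476672-92449247), which was crossed by 16 over a length of 1973 kb. Oxr1 and Rabgap1l were crossed by 8, and 7 were counted in Myo10, Cdh23, Agap1, Prkce, Adgrv1, Cacna1c and Ank3. Their lengths ran from 191 kb in Myo10 to 629 kb in Ank3, and Myo10 was the shortest of these 10 genes. Pde4d, crossed by 13 anchor bins in the window described above, starts outside the dense windows and was not ranked. Cdh23 and Adgrv1 are both genes of Usher syndrome, the joint loss of hearing and vision, and encode giant adhesion proteins of the hair bundle.

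**Figure D5:**
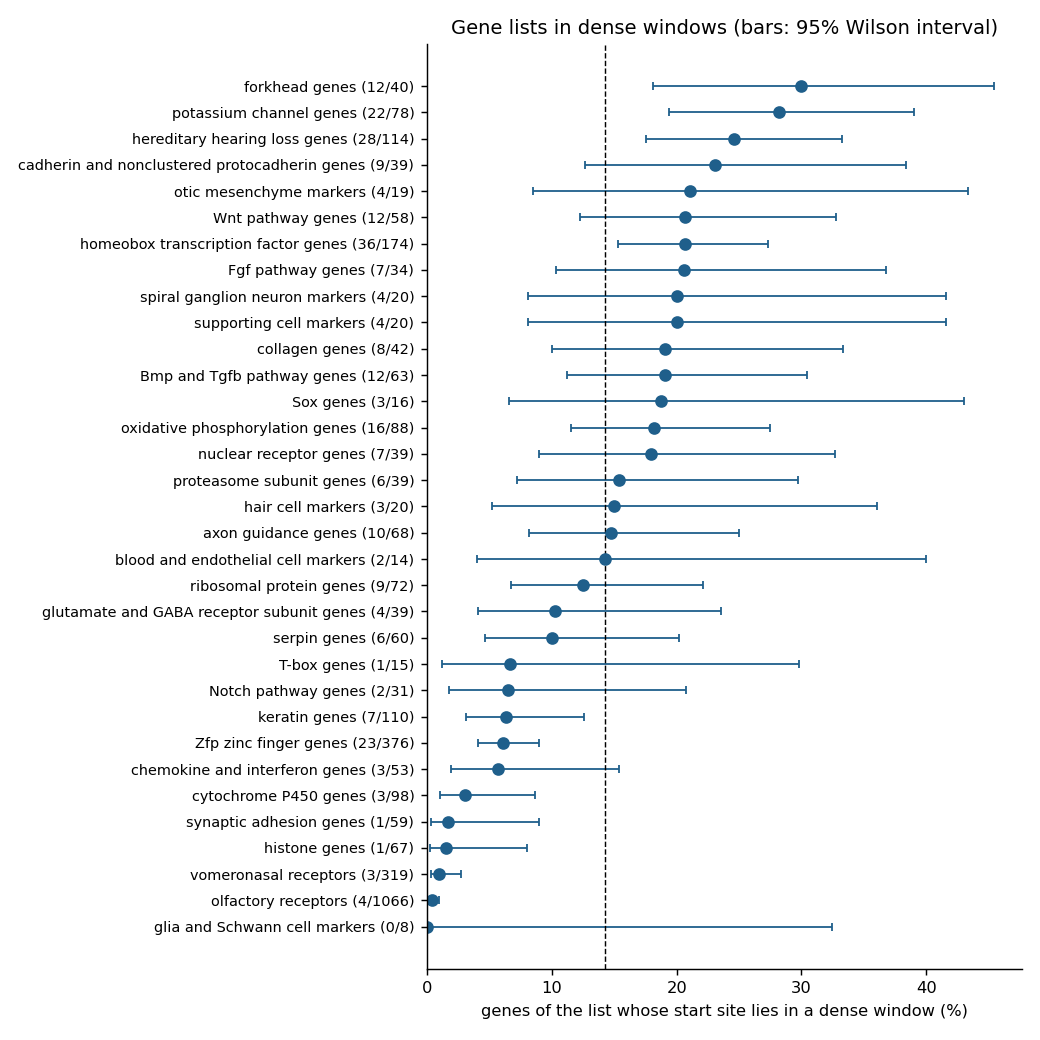
Share of the genes of each list whose start site lay in a dense window (horizontal axis, %), with 95% Wilson intervals as bars and the 14.2% of all protein-coding genes as a dashed line; the counts stand beside the list names. Forkhead genes (12 of 40), potassium channel genes (22 of 78) and hearing loss genes (28 of 114) stood highest, and olfactory (4 of 1066) and vomeronasal receptors (3 of 319) were near 0.

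Gene families differed widely in how often they lay in dense windows, as the plot of gene lists shows. Among the 33 lists, those of sensory receptors stood near 0. Only 4 of 1066 olfactory receptor genes (0.375%) and 3 of 319 vomeronasal receptor genes (0.94%) started in dense windows, against 14.2% of all protein-coding genes. In windows without any anchor started 47.5% and 72.4% of them, against 12.1% of all protein-coding genes. Zinc finger genes of the Zfp series (23 of 376, 6.12%), cytochrome P450 genes (3 of 98, 3.06%) and histone genes (1 of 67) were also few. These families lie in clusters, so that the genes of a list share windows. Counted by window, 3 of 79 windows with an olfactory receptor, 22 of 176 windows with a Zfp gene, 3 of 37 windows with a cytochrome P450 gene and 1 of 6 windows with a histone gene were dense, against 286 of 2075 windows with any protein-coding start site (13.8%).

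Synaptic adhesion genes, which encode the neurexins, contactins, teneurins and their partners, stood low without being clustered. Only 1 of 59 started in a dense window (1.69%, 0.30 to 9.0%), and these 59 genes lay in 59 different windows. The one gene was Opcml, an adhesion protein of neurons, in a window of 10 anchor bins. Of the 59, 14 (23.7%) started in windows without an anchor, against 12.1% of all protein-coding genes. Genes were placed by their start site alone, and the list was not matched for gene length. Among all genes of 500 kb or more the share in dense windows was also low (16 of 215, 7.44%), inside the interval of this list. Glutamate and GABA receptor subunits were at 4 of 39 (10.3%), with Grid1, Grin2b, Grik4 and Gabrp, and 11 (28.2%) started in windows without an anchor. Axon guidance genes were at 10 of 68 (14.7%), close to all genes, and 6 of the 10 had their start in an anchor bin, among them Slit3, Sema3d, Ntn1 and Plxnc1.

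Genes of cellular housekeeping lay in dense windows about as often as all genes did. Ribosomal protein genes were at 9 of 72 (12.5%), proteasome subunits at 6 of 39 (15.4%) and oxidative phosphorylation genes at 16 of 88 (18.2%). Only Rpl26 among the 9 ribosomal protein genes had its start in an anchor bin. Collagen genes were at 8 of 42 (19%), with Col6a3 and Col14a1 starting in an anchor bin. Serpin genes stood at 6 of 60, keratin genes at 7 of 110, and chemokine and interferon genes at 3 of 53.

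Developmental regulators had a higher share than all genes at this threshold. Of 284 homeobox, Sox, forkhead, nuclear receptor and T-box genes 59 did (20.8%, 16.5 to 25.9%), in 41 windows, and 21 of the 59 (35.6%) had their start in an anchor bin. Over all genes of dense windows 15.8% (452 of 2864) had. By family the counts were 36 of 174 homeobox genes (20.7%), 12 of 40 forkhead genes (30%), 7 of 39 nuclear receptor genes (17.9%), 3 of 16 Sox genes and 1 of 15 T-box genes. A window of the Hoxa cluster held 12 of the 36 homeobox genes. Counted by window the shares were 25 of 125 for homeobox genes (20%) and 8 of 35 for forkhead genes (22.9%).

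In the Hoxa window, chr6:52000001-53000000 with 12 anchor bins, the cluster was touched by anchors from both sides. The Hox genes of this cluster give position along the body axis. Anchor bins at Hoxa3, Hoxa4, Hoxa5, Hoxa6 and Hoxa7 had partners at lower coordinates, at 190, 330 and 620 kb. The anchor bins at Hoxa13, at the other end of the cluster, had partners at higher coordinates, beyond Evx1, at 460, 580 and 670 kb. Of these 6 loops, the one of 620 kb had the highest FDR (0.0798) and the one of 190 kb at the start of Hoxa4 the lowest (0.000304). The start sites of Hoxa5 and Hoxa6 shared 1 bin, so 10 kb bins do not separate these genes.

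Of the 12 forkhead genes in dense windows, 6 came from 2 small clusters. In chr13:31000001-32000000, with 11 anchor bins, Foxq1, Foxf2 and Foxc1, regulators of mesenchyme and vessels, lay together. Foxf2 was touched by 4 loops of 420 to 740 kb, all to lower coordinates, and 2 of them ended in its start bin, of which the one of 540 kb had an FDR of 5.35e-05. Foxc1 had a single loop, of 390 kb to higher coordinates (FDR 0.000105). In the cluster on chromosome 8 the starts of Foxf1, Foxc2 and Foxl1 all lay in anchor bins, with a loop of 260 kb at Foxf1 to lower coordinates (FDR 3.53e-05) and one of 400 kb at Foxc2 to higher coordinates (FDR 5.49e-05).

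Signalling lists stood between 6.45% and 20.7%. Wnt pathway genes were at 12 of 58 (20.7%), Fgf pathway genes at 7 of 34 (20.6%), Bmp and Tgfb pathway genes at 12 of 63 (19%) and Notch pathway genes at 2 of 31 (6.45%). Those whose start lay in an anchor bin were Fzd3, Sfrp2, Wnt7a and Wnt7b of the Wnt list, Fgf8 and Fgf18 of the Fgf list, Gdf6, Acvr1, Fst, Bmp6 and Id4 of the Bmp and Tgfb list, and Maml3 of the Notch list. Fgf8 is a signal of inner hair cells to the neighbouring pillar cells.

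Potassium channel genes were at 22 of 78 (28.2%, 19.4 to 39%). They lay in 15 windows, up to 4 in one, and 15 of the 67 windows with such a gene were dense (22.4%). The group of Kcna3, Kcna2, Kcna10 and Kcnc4 lay in chr3:107000001-108000000, where only the start of Kcna10, a channel of the inner ear, was in an anchor bin. Kcna1, Kcna5 and Kcna6 lay together on chromosome 6, with 10 anchor bins in their window and no anchor at their starts. Kcnj10, the inward rectifier of the stria vascularis that serves the endocochlear potential, lay in a window of 12 anchor bins, with none inside the gene.

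Genes of hereditary hearing loss were at 28 of 114 (24.6%, 17.6 to 33.2%) and lay in 26 dense windows of the 107 that held one. In 5 of the 28 (17.9%) the start site was in an anchor bin, a share close to the 15.8% of all genes in dense windows. These were Cdh23, Adgrv1, Gjb2, Otogl and Ptprq, which encode the tip link cadherin, an adhesion receptor of the hair bundle, the gap junction protein connexin 26, a component of the acellular membranes and a phosphatase of stereocilia. Genes on the list without any anchor bin in their body included Slc26a4 (pendrin, in a window of 13 anchor bins), Slc26a5 (prestin), Met, Gjb6 and Kcnj10.

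Cdh23 (chr10:60302748-60696490, minus strand) lay in a window of 15 anchor bins at 49.9% GC. It was touched by 5 loops of 100 to 430 kb, and 3 of them had both anchors inside the gene. The loop at its start bin spanned 160 kb within the gene (FDR 0.0167), and the one with the lowest FDR (0.000738) spanned 340 kb and ended upstream of the gene. Adgrv1 (chr13:81095068-81633154, minus strand) was touched by 7 loops of 110 to 560 kb, of which 1 lay wholly inside the gene, from its start bin inward (FDR 0.0633). The other 6 joined the gene body to sites beyond its ends, 4 at lower and 2 at higher coordinates. At Gjb2 (chr14:57098600-57104702, minus strand) the start bin had a loop of 250 kb (FDR 0.000996). Otogl and Ptprq shared a window of 10 anchor bins on chromosome 10, in which the start bin of Otogl was the right anchor of 2 loops inside the gene (110 and 60 kb) and the start bin of Ptprq that of 1 loop of 280 kb (FDR 0.00373).

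Markers of each cochlear cell type but glia were found in dense windows. Counts were 3 of 20 for hair cell markers (Calb2, Otof and Slc26a5), 4 of 20 for supporting cell markers (Gjb2, Gjb6, Tecta and Tectb) and 4 of 20 for spiral ganglion neuron markers (Sncg, Ntrk2, Pou4f2 and Snap25). They were 4 of 19 for otic mesenchyme markers (Runx2, Twist1, Emilin2 and Prrx2), 2 of 14 for blood and endothelial cell markers (Csf1r and Hba-a1) and 0 of 8 for glia and Schwann cell markers. The Wilson intervals of all 6 lists included 14.2%, and with lists of 8 to 20 genes no order among these cell types can be read. Cadherin genes stood at 9 of 39 (23.1%) with Cdh23, Cdh1, Cdh3 and Pcdh8 among them. In windows without an anchor started 12 of the 39 (30.8%), against 12.1% of all protein-coding genes.

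The position of a list depended on the threshold and on the grid of windows. With 12 or more anchor bins 5% of forkhead genes lay in dense windows, against 5.40% of all genes, while homeobox genes were at 13.8%, potassium channel genes at 8.97% and hearing loss genes at 8.77%. With the grid shifted by 500 kb forkhead genes were at 36.6%, homeobox genes at 30.9%, potassium channel genes at 25.3% and hearing loss genes at 17.5%, against 13.7% of all genes. With bins within 20 kb merged, developmental regulators together were at 1.41%, below the 1.86% of all genes, as were homeobox genes (1.72%), hearing loss genes (0.877%) and forkhead genes (0 of 40). Potassium channel genes were at 2.56%. Forkhead genes also stood below all genes with loops below FDR 0.05 (5% against 6.71%) and with loops of the smallest detection scale (0 of 40 against 4.91%). Olfactory receptors (up to 3.19%) and synaptic adhesion genes (up to 10.2%) stayed below all genes under each of the 6 alternatives of threshold, grid, loop filter and counting.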

How the data were processed

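Micro-C was performed on whole newborn mouse cochlea, labelled P0 (4 replicates of 16 samples). The authors aligned reads to mm10 with BWA-MEM, removed duplicates with pairtools, pooled all replicates and ran the loop caller Mustache at 10 kb resolution, and the submitters' processing notes also name Juicer. The q-value (FDR, below 0.1) and the score of each loop, its detection scale, were deposited by the authors' loop caller. ATAC-seq and CUT&RUN samples were not analysed here. Depth per replicate is not in the list, and the precision of the list cannot be told from it. The authors report depth per replicate, and it was uneven. The replicate that they once call technical had the most read pairs after removal of duplicates.

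Anchor bins were counted in 1 Mb windows that start at multiples of 1 Mb. Start sites, lengths and classes of genes came from GENCODE vM21, and GC, repeat masking and CTCF matches (a 14-letter consensus from general knowledge, both strands, at most 1 mismatch) from the RefSeq genome GRCm38.p6. All bins lay within its chromosome ends. Shares carry 95% Wilson intervals and medians 95% intervals from order statistics. No test was run, because the members were selected on the anchor count and the list holds no replicates. Named genes were drawn from the 10 windows with most anchor bins and the 5 with most and with fewest start sites. There they were genes with their start in an anchor bin, or the longest gene. Others were the 10 genes with most anchor bins among those that start in dense windows, and members of the 33 gene lists. All members of a list could be named where 10 or fewer lay in dense windows. Not every gene that met these rules is named, and the longest gene of several windows, such as Ptprn2 and Zfpm2, was left out. Retreg1, Zfp622, Tnp1, Rc3h1, Rapgef5, Dnah11, Erc1 and single members of longer lists were chosen after their values were seen. The members and lists were chosen with earlier results of these data known, and the gene lists were written from general knowledge. The counting was tested on simulated data. Python 3.11.15, numpy 2.4.6, pandas 2.3.3, scipy 1.17.1 and matplotlib 3.10.9 were used. Alternatives were thresholds of 8 and 12 bins, a grid shifted by 500 kb, loops below FDR 0.05, bins within 20 kb merged, loops of the smallest detection scale, and other definitions of genes and matches.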

Additional observations from a re-analysis of the deposited data

How the results depend on the processing

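The number of dense windows rests on the threshold and on the loops counted. It was 611 with 8 or more bins, 112 with 12 or more, 132 with loops below FDR 0.05, 97 with the smallest detection scale and 29 with bins within 20 kb merged, and the runs numbered 383, 103, 117, 88 and 29. The windows found under the last 4 were all among the 287 by construction, because these settings only raise the threshold or lower the count of a window. Developmental regulators in dense windows were at 47.9%, 10.2%, 11.3%, 5.45% and 1.41% under these settings, and at 26.4% with the grid shifted by 500 kb, against 31.7%, 5.40%, 6.71%, 4.91%, 1.86% and 13.7% of all protein-coding genes. With bins merged they were therefore below all genes. The median gene length was 23.5 kb with 8 or more bins, 28.8 kb with 12 or more and 28.4 kb with the smallest detection scale. With loops below FDR 0.05, the smallest scale and merged bins, in this order, GC was 44.3%, 44.3% and 45.4%, the median loop distance 260, 250 and 210 kb, the loops that stayed inside 63.9%, 65.9% and 65.5%, and the anchors with a CTCF match 51.1%, 53.4% and 55.4%. Merged bins gave 11 start sites a window, 14.8% of anchors at start sites and 82.8% of loops below FDR 0.05. CTCF matches were 13.6% without mismatch and 94.3% with at most 2, start sites of any transcript lay at 16.7% of anchors, and all annotated genes gave 23 starts a window. Start sites, GC and gene length were higher, and repeat-masked bases lower, in dense than in other windows under each of the 6 settings of threshold, grid, loops and merging. The cause of these shifts was not tested, except that fewer loops or merged bins leave fewer windows by construction.

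No paired analysis was possible because loops were called once, on all replicates pooled. Loops below FDR 0.05 give no separate value for the share below that limit. A loop list without depth or replicates limits all counts to these merged libraries, and windows, anchors and genes are not independent of their neighbours.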
